A study of Mus musculus with 4 samples.

Results

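The genes described here are 10 growth factor genes outside the VEGF family: the PDGF ligands Pdgfa, Pdgfb and Pdgfc with the receptor Pdgfrb, the ligand Hgf with its receptor Met, the EGF-like ligands Hbegf, Tgfa and Areg, and Igf1. They were taken as the genes to which the RefSeq accession of a probe maps, and they were 10 of the 22911 genes that could be named, with 13 of the 56605 probes. RNA of mouse bone marrow cultures was hybridised to 4 single-colour microarrays. Each group had 1 array: LysM-St18flox osteoclasts, wild-type osteoclasts, LysM-St18flox macrophages and wild-type macrophages. All cultures started as marrow cells kept for 4 days in 25 ng/ml of M-CSF, a cytokine that macrophages need to survive and divide, in RPMI1640 medium with 10 % FBS. Macrophages were taken then, and osteoclasts, the cells that resorb bone, were made by 3 more days in 25 ng/ml of M-CSF with 50 ng/ml of RANKL, the osteoclast-inducing cytokine. An osteoclast array therefore differs from a macrophage array in RANKL and in culture time, which cannot be told apart. By the usual meaning of such a name, LysM-St18flox is a floxed St18 allele deleted by Cre made from the lysozyme 2 gene, which is active in myeloid cells. The Cre allele of the wild-type mice, the age, sex and number of the mice and any pooling are not stated in the labels. With 1 array a group no difference has a replicate check, no test was made, and a gene was called higher or lower when it was at least 2-fold apart.

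These genes encode secreted or shed proteins and 2 of their receptor tyrosine kinases. PDGF dimers act through PDGFRA and PDGFRB on fibroblasts, pericytes and osteoblast precursors, and PDGF-BB made by cells on the way to osteoclasts is known to promote vessel growth in bone. HGF is cut by serine proteases into the ligand of MET, which has been found on osteoclasts, HB-EGF, TGF-alpha and amphiregulin are shed from the cell surface and bind EGFR, and IGF-1, which signals through IGF1R, is a known product of macrophages.

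Levels are given as normalised log2 signals, which are the log2 of the processed signal minus the 75th percentile of the array, so that 0 is that percentile. A level can be compared between arrays for 1 probe and not between genes. A probe was taken as measured where the scanner software called it well above background, and the lowest such signal was -5.50 in LysM-St18flox osteoclasts, -4.89 in wild-type osteoclasts, then -5.56 in LysM-St18flox macrophages and -5.32 in wild-type macrophages. Where 1 of the 2 arrays of a comparison was not well above background, its value was replaced by that lowest signal or by its own, whichever was higher, and the difference is given as a bound ("at least"). The error beside a log2 difference is the standard error (SE) that follows from the scanner software's own error for each spot, about 10.0% of a bright signal. It covers neither cultures nor mice. The 300-base promoters of 4 of the genes are printed next, because these genes were well above background on every array and had the largest differences.

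Of the 4 arrays, 59.0% to 63.2% of 59305 spots were well above background and 0 spots were saturated. St18, the targeted gene, which encodes a zinc finger protein of the Myt1 family, had a level of 1.12 in LysM-St18flox osteoclasts and 1.55 in wild-type osteoclasts, and of -1.52 in LysM-St18flox macrophages and 0.29 in wild-type macrophages. It was thus 1.35-fold lower in LysM-St18flox osteoclasts and 3.51-fold lower in LysM-St18flox macrophages than in wild-type cells. LysM-St18flox osteoclasts were the only array on which its dimmer probe was measured, and whether either probe lies in the deleted part is not stated in the labels. The labelled cell types were checked against their markers. Each of the 8 macrophage markers was measured on every array, and all 9 osteoclast markers were at least 2-fold higher in osteoclasts of either genotype. The osteoclast markers also differed between genotypes, since among osteoclasts 7 of 9 were higher with LysM-St18flox than with the wild type (median log2 difference 1.23), while among macrophages the 8 measured ones had a median difference of -0.03. There Dcstamp (-1.81) and Ocstamp (-1.01) were lower with LysM-St18flox, and the other 6 lay between -0.43 and 0.93, 4 of them above 0.

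RefSeq promoters (GRCm38.p6, from 250 bases before to 50 bases after a start site) were available here for 7 of the 10 genes, with 9 promoters in all. They were searched on both strands for AP-1 (TGANTCA, in 7.81% of all 32851 promoters), the E-box bound by MITF (CACGTG, 7.15%), NFAT (TGGAAA, 21.4%), PU.1 (GAGGAAGT, 3.20%) and a Myt1 family motif (AAAGTTT, 4.74%), the first 4 being motifs of factors known from osteoclasts. Capitals mark the matches, and no 2 of them overlap. The Met promoter (chr6:17463707-17464006, plus strand, 75.7% G and C, against a median of 52.7% over all promoters) holds an AP-1 match that starts 54 bases before the start site and an E-box that starts 126 bases before it. The Igf1 promoter (chr10:87860861-87861160, plus strand) holds an AP-1 match 37 bases before the start site and an NFAT match just after it. The Pdgfa promoter (chr5:138994232-138994531, minus strand) holds 1 NFAT match on the opposite strand, the other Pdgfa promoter (chr5:138994895-138995194, not printed) holds none of the 5 motifs, and the Pdgfc promoter (chr3:81036166-81036465, plus strand) holds none of the 5 motifs in this window. A match is a run of letters and not a shown binding site.
Met: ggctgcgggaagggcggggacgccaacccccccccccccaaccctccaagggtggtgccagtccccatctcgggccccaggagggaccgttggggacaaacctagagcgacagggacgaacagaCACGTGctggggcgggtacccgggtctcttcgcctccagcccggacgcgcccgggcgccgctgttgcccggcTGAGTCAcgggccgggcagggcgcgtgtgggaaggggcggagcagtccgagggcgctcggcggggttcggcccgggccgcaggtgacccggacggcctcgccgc
Igf1: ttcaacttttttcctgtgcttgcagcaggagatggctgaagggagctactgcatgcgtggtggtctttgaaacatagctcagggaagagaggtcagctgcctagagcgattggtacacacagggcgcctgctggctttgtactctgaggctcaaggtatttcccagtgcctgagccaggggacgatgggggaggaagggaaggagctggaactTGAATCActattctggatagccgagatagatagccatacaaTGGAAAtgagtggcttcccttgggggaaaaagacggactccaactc
Pdgfa: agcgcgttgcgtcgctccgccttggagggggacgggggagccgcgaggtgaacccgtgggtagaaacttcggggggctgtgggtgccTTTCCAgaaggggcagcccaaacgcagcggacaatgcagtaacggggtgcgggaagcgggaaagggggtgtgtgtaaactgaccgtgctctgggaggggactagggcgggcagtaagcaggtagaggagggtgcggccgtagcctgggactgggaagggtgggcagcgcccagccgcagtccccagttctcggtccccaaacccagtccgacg
Pdgfc: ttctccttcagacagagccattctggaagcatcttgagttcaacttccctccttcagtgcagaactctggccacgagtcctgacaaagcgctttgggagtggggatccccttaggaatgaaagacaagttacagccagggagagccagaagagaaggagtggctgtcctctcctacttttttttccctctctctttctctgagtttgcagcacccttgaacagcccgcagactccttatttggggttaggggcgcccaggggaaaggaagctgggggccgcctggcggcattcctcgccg

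Of the 10 genes, 7 were measured well above background somewhere, and 5 of them (Pdgfa, Pdgfb, Pdgfc, Met and Igf1) on all 4 arrays. Pdgfrb, Tgfa and Areg were not well above background on any array. In LysM-St18flox against wild-type osteoclasts, 7 of the 10 genes were measured, and Hbegf was higher and Hgf lower. Over all 14615 genes measured in that comparison, 7.75% were 2-fold apart, 3.8% higher and 3.94% lower. In LysM-St18flox against wild-type macrophages, Pdgfc was higher and Pdgfa and Met were lower of 6 measured, where 6.28% of 15163 genes were 2-fold apart, 3.3% higher and 2.98% lower. In osteoclasts against macrophages of LysM-St18flox mice all 7 measured genes were 2-fold apart, with Pdgfa, Pdgfb, Met and Hbegf higher and Pdgfc, Hgf and Igf1 lower, where 23.2% of 15577 genes were 2-fold apart, 10.9% higher and 12.2% lower. In osteoclasts against macrophages of the wild type, Pdgfa, Met and Hbegf were higher and Pdgfc and Igf1 lower of 7 measured, where 13% of 14736 genes were 2-fold apart, 5.7% higher and 7.32% lower. Some genes passed the background filter on the strength of 1 array alone and had to differ in such a comparison. These were Hbegf between cell types, and Hgf between osteoclasts of the genotypes and between LysM-St18flox cell types. The medians that follow are therefore a description only. The median size of the log2 difference over the measured growth factor genes was 0.73 between osteoclasts of the 2 genotypes, 1.02 between macrophages, at least 3.07 between LysM-St18flox cell types (the bound of Hgf) and 1.33 between wild-type cell types, against 0.29, 0.29, 0.48 and 0.31 over all genes measured in the same comparisons. The signed medians were -0.39, -0.16, 1.49 and 0.40 in that order, against all-gene medians between -0.02 and 0.00.

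**Figure D1:**
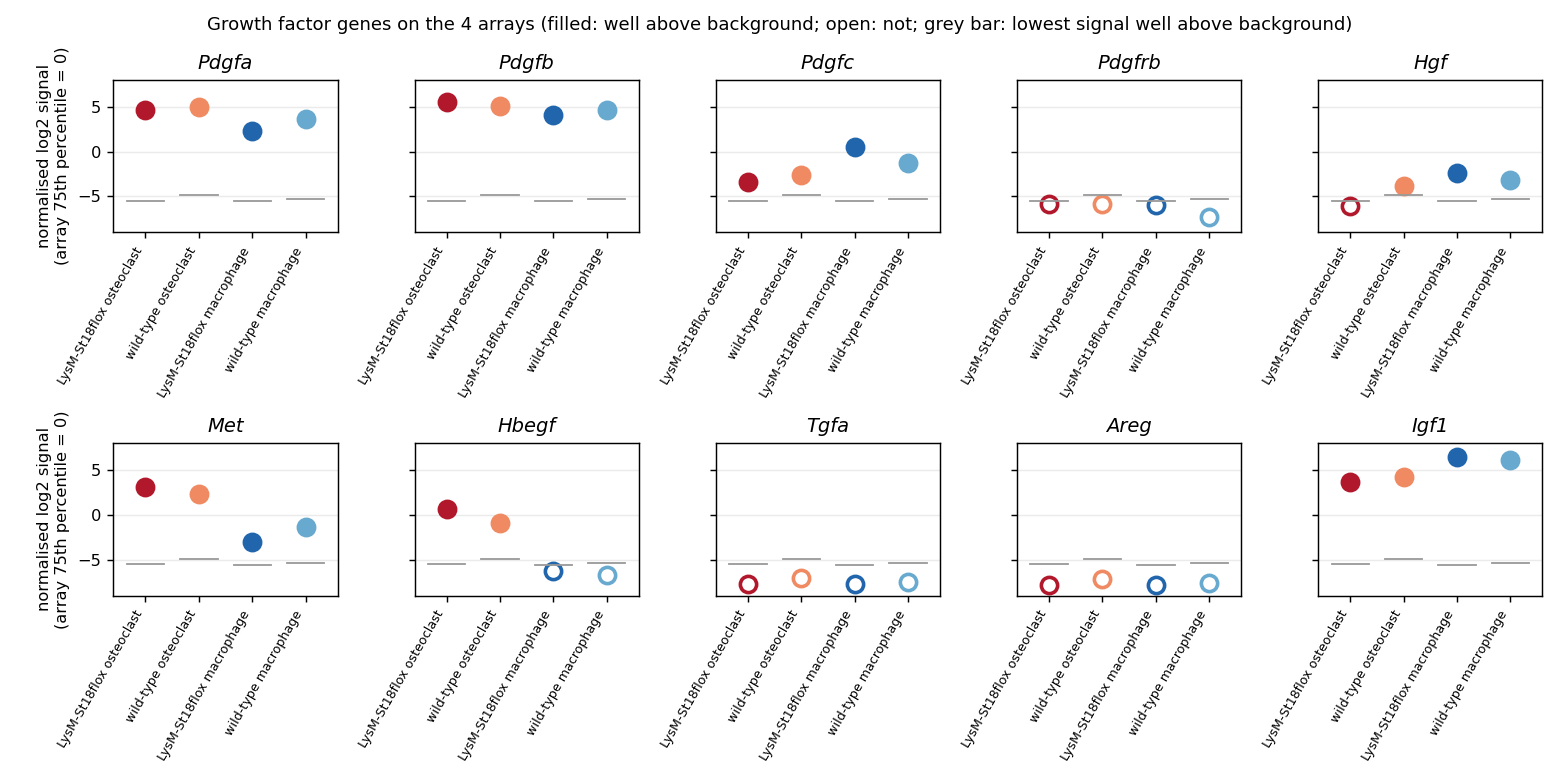
Normalised log2 signal (y axis, 0 is the 75th percentile of the array) of the 10 growth factor genes on the 4 arrays (x axis), 1 point per array; filled points are well above background, open points are not, and grey bars are the lowest signal well above background. Met and Hbegf are highest in osteoclasts, Pdgfc and Igf1 in macrophages, and Pdgfrb, Tgfa and Areg have open points on all 4 arrays.

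Pdgfa, which encodes the A chain of PDGF, a mitogen of mesenchymal cells, was high in osteoclasts and lowest in LysM-St18flox macrophages. Its level was 4.61 in LysM-St18flox osteoclasts and 4.99 in wild-type osteoclasts, against 2.34 in LysM-St18flox macrophages and 3.66 in wild-type macrophages. Both osteoclast arrays were above both macrophage arrays. Pdgfa was 2.49-fold lower in LysM-St18flox macrophages than in wild-type ones (log2 difference -1.31 ± 0.20), the 160th lowest of the 14360 genes well above background on both arrays. Between osteoclasts the genotypes differed by -0.39 ± 0.20, under the 2-fold size. Osteoclasts had 4.80-fold more signal than macrophages in LysM-St18flox cells (log2 2.26) and 2.52-fold more in wild-type cells (1.33). The dimmer Pdgfa probe gave differences close to these, at -0.31 between osteoclasts, -1.30 between macrophages, 2.54 between LysM-St18flox cell types and 1.55 between wild-type ones.

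Pdgfb, which encodes the B chain, was bright on every array and differed less. Its level was 5.53 in LysM-St18flox osteoclasts, 5.07 in wild-type osteoclasts, and then 4.04 in LysM-St18flox macrophages and 4.67 in wild-type macrophages, so that the order of the genotypes was opposite in the 2 cell types. The genotype difference was 0.46 ± 0.20 in osteoclasts and -0.63 ± 0.20 in macrophages, both under 2-fold. Only the LysM-St18flox cells had a 2-fold difference between cell types, at 2.81-fold higher in osteoclasts (log2 1.49), against 1.32-fold higher in wild-type osteoclasts (0.40).

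Pdgfc, which encodes a PDGF ligand that is activated by removal of its CUB domain, ran opposite to Pdgfa between cell types and between macrophages. Between osteoclasts both genes were lower with LysM-St18flox. The level of Pdgfc was -3.34 in LysM-St18flox osteoclasts and -2.61 in wild-type osteoclasts, against 0.52 in LysM-St18flox macrophages and -1.28 in wild-type macrophages. LysM-St18flox macrophages stood above the other 3 arrays. Pdgfc was 3.48-fold higher there than in wild-type macrophages (log2 1.80 ± 0.20), the 69th highest of 14360 genes. In LysM-St18flox osteoclasts it was 1.66-fold lower than in wild-type osteoclasts (-0.73 ± 0.23), under the 2-fold size. The fall with osteoclast culture was 14.5-fold in LysM-St18flox cells (log2 -3.86), the 66th lowest of 14256 genes, and 2.51-fold in wild-type cells (-1.33). Among the 8 macrophage markers, 2 were likewise higher in LysM-St18flox macrophages than in the wild type and lower in osteoclasts: Mertk (1.66 between macrophages, then -4.22 in LysM-St18flox and -2.30 in wild-type osteoclasts) and Mrc1 (1.41, then -4.69 and -3.20). The other 6 lay between -0.40 and 0.63 between macrophages, and the part of these markers in the Pdgfc values was not tested. Pdgfc has 1 probe, well above background on every array, so the settings on filters and on the median over probes could not change its values. The other settings were another background correction, scaling to the array median, quantile normalization and the authors' values. In each of them the direction and the side of the 2-fold size were as given.

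Pdgfrb, which encodes the receptor of the PDGF B chain on pericytes and fibroblasts, had levels of -5.86 in LysM-St18flox osteoclasts, -5.88 in wild-type osteoclasts, and then -5.91 in LysM-St18flox macrophages and -7.32 in wild-type macrophages. None of these was well above background, so no difference is given. Pdgfra, which encodes the receptor of the A and C chains, was not well above background on any array either, nor was Pdgfd. The ligands were thus measured in cultures in which neither receptor was. Among 11 stroma and fibroblast markers, between 4 and 6 were well above background on an array, with a summed level of 2.36 times the 75th percentile in LysM-St18flox osteoclasts, 2.60 times in wild-type osteoclasts, and then 3.16 times in LysM-St18flox macrophages and 3.90 times in wild-type macrophages. Col3a1, Cxcl12, Pdgfra, Lum and Postn, which define such cells, were below that limit on all arrays. Col1a2, Lepr, Dcn and Kitl of the same list were measured on all arrays, and Dcn was higher in osteoclasts (1.65 in LysM-St18flox cells, 1.26 in the wild type) while Kitl was lower in osteoclasts of the wild type (-1.47). Their part in the results was not tested. Of 7 pericyte and smooth muscle markers 5 were measured on each array, with summed levels of 66.9 in LysM-St18flox osteoclasts, 77.6 in wild-type osteoclasts, and then 66.1 in LysM-St18flox macrophages and 105 in wild-type macrophages. Rgs5 and Myh11 were not well above background on any array. The measured ones were Acta2, Tagln, Cspg4, Notch3 and Mcam, with most of each sum from Acta2 and Mcam. Cspg4 was lower in LysM-St18flox macrophages than in wild-type ones (-1.71), and the others lay between -0.92 and 0.48 there. The part of these markers in the results was not tested.

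Platelets and megakaryocytes are a known source of PDGF and HGF, and of their 6 markers 4 were well above background on every array. The summed level was 14.7 in LysM-St18flox osteoclasts, 24.2 in wild-type osteoclasts, and then 210 in LysM-St18flox macrophages and 194 in wild-type macrophages (times the 75th percentile), most of it Pf4, while Itga2b and Gp9, 2 genes that define the lineage, were not well above background on any array. The sum was lower in osteoclasts, as were Pdgfc and Igf1, and its part in these results was not tested. Summed levels of 7 measured neutrophil markers were 9.76, 14.1, 40.2 and 33.0 in the same order of arrays, and their part was not tested. In RNA from whole cultures, fewer cells of a type and less RNA per cell cannot be told apart.

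Hgf, which encodes hepatocyte growth factor, was dim. Its brighter probe had a level of -3.81 in wild-type osteoclasts, and then -2.44 in LysM-St18flox macrophages and -3.17 in wild-type macrophages. On the array of LysM-St18flox osteoclasts it was not well above background, with a measured level of -6.04. It was at least 3.22-fold lower in LysM-St18flox osteoclasts than in wild-type ones, and in LysM-St18flox osteoclasts at least 8.37-fold lower than in macrophages of that genotype. The differences between macrophages (0.74 ± 0.22) and between wild-type cell types (-0.64 ± 0.26) were under 2-fold. The dimmer Hgf probe was not well above background in either osteoclast array, at -6.01 in LysM-St18flox and -5.11 in wild-type cells, so it gave no genotype difference there. It had -2.97 in LysM-St18flox macrophages and -3.13 in wild-type macrophages, and a bound of -1.77 for wild-type osteoclasts minus macrophages, which is past 2-fold where the brighter probe was not. With another background correction (normexp) the differences of the brighter probe shrank to -1.04 between osteoclasts and -1.68 between LysM-St18flox cell types.

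Met, which encodes the HGF receptor, had the widest range of the genes measured on all arrays, at 6.17 on the log2 scale. Its brighter probe had a level of 3.14 in LysM-St18flox osteoclasts and 2.34 in wild-type osteoclasts, against -3.03 in LysM-St18flox macrophages and -1.30 in wild-type macrophages. Every osteoclast value was above every macrophage value. The signal was 71.9-fold higher in osteoclasts than in macrophages of LysM-St18flox mice (log2 6.17 ± 0.21), the 24th highest of 14256 genes, and 12.5-fold higher in the wild type (3.64 ± 0.20), the 52nd highest of 13883 genes. Met was 3.33-fold lower in LysM-St18flox macrophages than in wild-type ones (-1.73 ± 0.21), the 56th lowest of 14360 genes. Among osteoclasts it was 1.73-fold higher with LysM-St18flox than with the wild type (0.79 ± 0.20), under the 2-fold size. The summed level of the 9 osteoclast markers was likewise higher in LysM-St18flox than wild-type osteoclasts (972 and 760 times the 75th percentile). In macrophages it was 9.66 times that percentile in LysM-St18flox cells and 11.5 times in the wild type, with single markers on either side of 0 as given above. The part of these markers in the Met values was not tested.

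The 2 Met probes agreed on the rise in osteoclasts and not on the genotype. The dimmer probe had -0.20 in LysM-St18flox osteoclasts, -0.46 in wild-type osteoclasts, and then -2.58 in LysM-St18flox macrophages and -2.70 in wild-type macrophages. It was 5.21-fold higher in osteoclasts of LysM-St18flox mice and 4.73-fold higher in osteoclasts of wild-type mice. Its genotype difference was 0.26 ± 0.20 in osteoclasts and 0.12 ± 0.21 in macrophages, where the brighter probe had the other sign. The genotype difference of Met in macrophages therefore rests on 1 probe, and both probes carry the same RefSeq accession. The median over the probes was -0.81 in that comparison. Both Pdgfa probes, by contrast, ran in parallel across all 4 arrays.

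**Figure D2:**
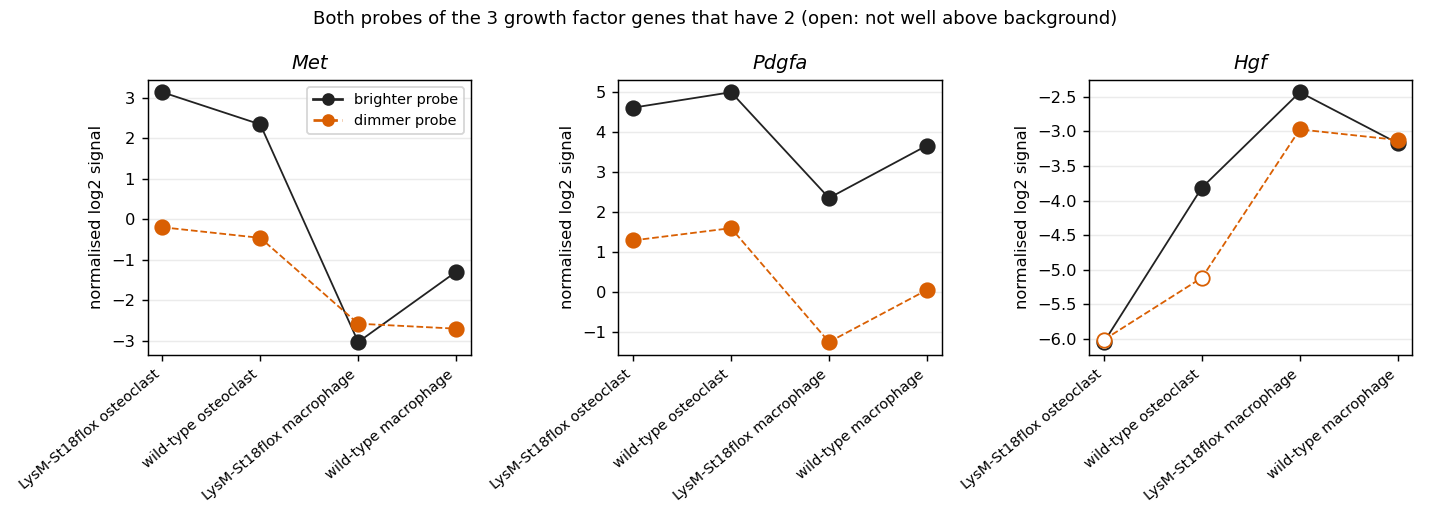
Normalised log2 signal (y axis) of the brighter (black, solid) and the dimmer (orange, dashed) probe of Met, Pdgfa and Hgf on the 4 arrays (x axis), 1 point per array, open where not well above background; lines only join the points of a probe, and the levels of 2 probes cannot be compared. The Pdgfa probes run in parallel, while only the brighter Met probe is lower in macrophages of LysM-St18flox mice than of wild-type mice (-1.73, against 0.12 for the dimmer probe).

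Of 7 other genes listed for the HGF system, Mst1r, Mst1 and St14 were higher and Hpn lower in LysM-St18flox osteoclasts than in their macrophages, where 23.2% of all genes were 2-fold apart. Mst1r and St14 were higher in wild-type osteoclasts, where 13% were, and Hgfac, Spint1 and Spint2 were under 2-fold in both genotypes. Mst1r, which encodes the receptor of the HGF-like protein MST1, was not well above background in macrophages of LysM-St18flox mice (-7.74) or wild-type mice (-7.31) and had 5.40 in LysM-St18flox and 3.57 in wild-type osteoclasts. Its bounds were 10.97 on the log2 scale for osteoclasts over macrophages in LysM-St18flox cells and 8.90 in wild-type cells, and among osteoclasts its signal in LysM-St18flox cells was 3.55 times the wild-type one (1.83). Its ligand gene Mst1 was higher in LysM-St18flox osteoclasts than in wild-type ones (1.07). St14, which encodes matriptase, a protease that activates HGF, was higher in osteoclasts of both genotypes (1.65 in LysM-St18flox cells, 1.52 in the wild type). Hpn, which encodes hepsin, another such protease, was higher in LysM-St18flox macrophages than in wild-type ones (1.98) and lower in LysM-St18flox osteoclasts than in macrophages of that genotype (-2.93), while Spint1, which encodes their inhibitor HAI-1, was lower in LysM-St18flox macrophages than in wild-type ones (-1.39). Plau, which encodes urokinase, was lower in osteoclasts (-2.04 in LysM-St18flox cells, -2.17 in the wild type). The dimmer Hpn probe reached 2-fold in neither comparison, with bounds of 0.53 between macrophages and -0.71 between LysM-St18flox cell types. The dimmer St14 probe gave bounds of 0.52 in LysM-St18flox cells and 1.30 in the wild type, and -1.02 between osteoclasts of the genotypes. The dimmer Spint1 probe gave 1.03 between LysM-St18flox cell types and 0.24 between wild-type ones, and -1.99 between macrophages and -1.20 between osteoclasts of the genotypes.

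Hbegf, which encodes an EGF-like factor that is shed from the membrane, was measured in osteoclasts and not in macrophages. Its level was 0.62 in LysM-St18flox osteoclasts and -0.87 in wild-type osteoclasts, and it was not well above background in LysM-St18flox macrophages (-6.20) or wild-type macrophages (-6.72). LysM-St18flox osteoclasts had 2.80 times the signal of wild-type ones (log2 1.49 ± 0.21), the 163rd highest of 13978 genes. Against macrophages it was at least 72.5-fold higher in LysM-St18flox osteoclasts and at least 21.9-fold higher in wild-type osteoclasts. These 2 bounds hold for the processed signal; with normexp, which adds an offset to every spot, the log2 differences were 4.31 and 2.40. Among osteoclasts, 7 of the 9 osteoclast markers were likewise higher with LysM-St18flox. The exceptions, Ctsk (0.29) and Acp5 (-0.29), were under the 2-fold size, and Acp5 had the other sign. The part of these markers in the Hbegf difference was not tested.

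Tgfa, which encodes TGF-alpha, had levels of -7.73 in LysM-St18flox osteoclasts, -7.05 in wild-type osteoclasts, and then -7.75 in LysM-St18flox macrophages and -7.53 in wild-type macrophages. Areg, which encodes amphiregulin, had -7.80, -7.19, -7.86 and -7.58 in the same order. All 8 values were below the lowest signal well above background of their array, and the scanner error of each was about as large as the signal. Of the 11 EGF family ligand genes 5 were measured on at least 1 array (Hbegf, Egf, Nrg1, Nrg2 and Nrg4), and Btc, Ereg, Epgn and Nrg3 were measured on none. Egf and Nrg4 were measured on all arrays with no 2-fold difference, with log2 differences between -0.09 and 0.65 for Egf and between -0.67 and -0.23 for Nrg4. Nrg1, which encodes a ligand of ERBB3 and ERBB4, was measured in osteoclasts alone, at -2.58 in LysM-St18flox and -2.40 in wild-type cells. Its bounds for osteoclasts over macrophages were 2.99 on the log2 scale in LysM-St18flox cells and 2.92 in wild-type cells, and a dimmer probe gave 1.24 and 0.73. Nrg2 was higher in LysM-St18flox macrophages than in wild-type ones (1.27) and lower in LysM-St18flox osteoclasts than in macrophages of that genotype (-1.67). The dimmer Nrg2 probe was measured on no array.

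Egfr, which encodes the receptor of these EGF-like ligands, was the only EGF receptor gene measured. Its level was 1.47 in LysM-St18flox osteoclasts and 0.90 in wild-type osteoclasts, against -1.34 in LysM-St18flox macrophages and -1.48 in wild-type macrophages. It was thus higher in osteoclasts by 2.81 on the log2 scale in LysM-St18flox cells and by 2.38 in the wild type, in which its dimmer probes gave 1.46 and 2.33. Both Egfr and Hbegf were higher in osteoclasts of either genotype. Adam17, which encodes the sheddase of HB-EGF and TGF-alpha, was measured on all arrays with no 2-fold difference (between -0.67 and 0.24), and Adam10, Rhbdf1 and Rhbdf2 were under 2-fold in every comparison. Timp3, which encodes an inhibitor of ADAM17, was measured in LysM-St18flox osteoclasts alone (-4.80), at least 1.70-fold higher than in macrophages of that genotype (-7.29).

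Igf1, which encodes insulin-like growth factor 1, was bright everywhere and lower in osteoclasts. Its level was 3.68 in LysM-St18flox osteoclasts and 4.25 in wild-type osteoclasts, against 6.39 in LysM-St18flox macrophages and 6.08 in wild-type macrophages, with processed signals of 13629, 14626, 97512 and 43128 before scaling. Both macrophage arrays were above both osteoclast arrays. It was 6.55-fold lower in osteoclasts than in macrophages of LysM-St18flox mice (log2 -2.71 ± 0.20), the 223rd lowest of 14256 genes, and 3.57-fold lower in the wild type (-1.84 ± 0.20), the 274th lowest of 13883 genes. The genotypes differed by -0.57 ± 0.20 in osteoclasts and 0.31 ± 0.20 in macrophages, both under 2-fold. Other settings gave -2.95 to -2.54 for LysM-St18flox cells and -1.90 to -1.84 for the wild type.

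The receptor gene Igf1r did not differ by 2-fold in any comparison, with -0.49 in LysM-St18flox osteoclasts, -0.76 in wild-type osteoclasts, and then -0.75 in LysM-St18flox macrophages and -1.27 in wild-type macrophages. Igf2r, whose product takes up IGF-2 and lysosomal enzymes, was higher in osteoclasts (1.47 in LysM-St18flox cells, 1.04 in the wild type). Igfbp4, which encodes a binding protein that holds IGF-1, was lower in osteoclasts as Igf1 was, with -3.25 in LysM-St18flox cells and -2.47 in the wild type, and its dimmer probe gave -3.10 and -2.58. Irs2, which encodes a docking protein of the IGF-1 and insulin receptors, was lower as well (-2.02 in LysM-St18flox cells, -1.39 in the wild type). Igfbp7 was measured in LysM-St18flox osteoclasts alone, and Igf2 on no array.

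**Figure D3:**
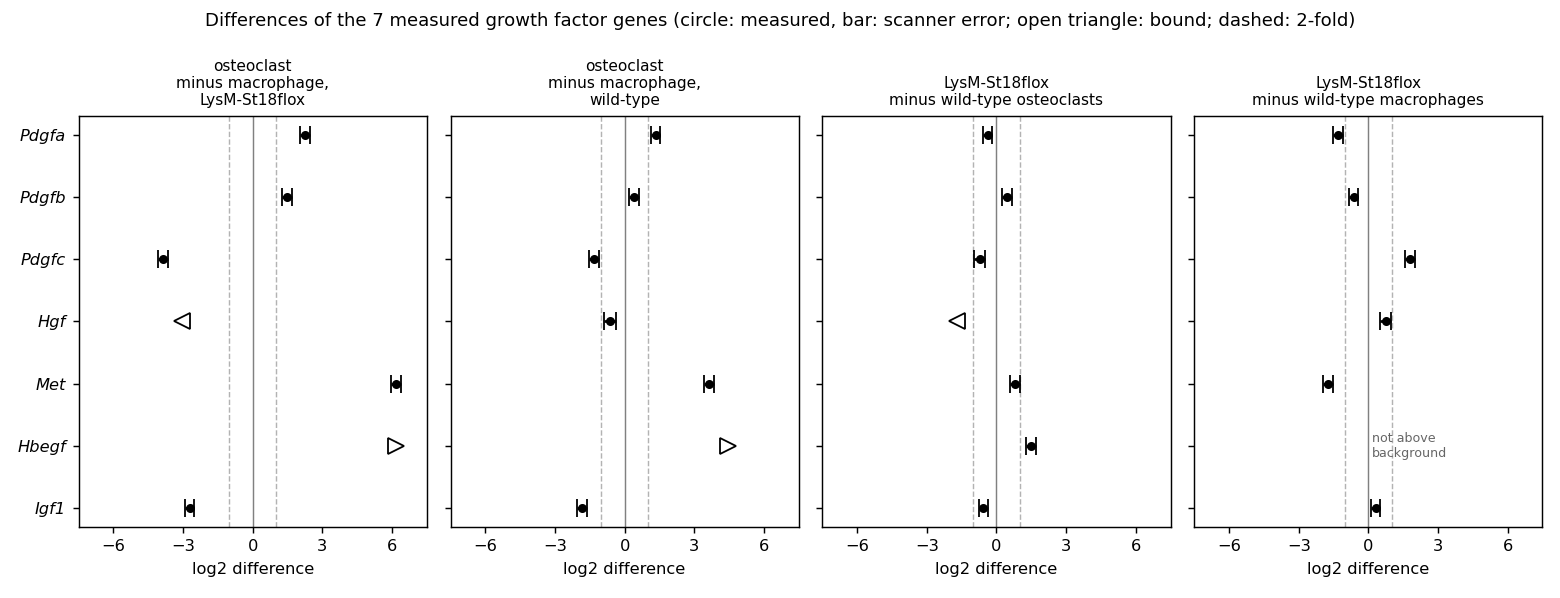
Log2 difference (x axis) of the 7 measured growth factor genes (y axis) in the 4 comparisons (panels); circles are measured on both arrays with the scanner error as a bar, open triangles are bounds that point away from 0, and dashed lines mark 2-fold. All 7 genes lie outside the dashed lines between LysM-St18flox cell types, while Met, Pdgfa and Pdgfc do so between macrophages.

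The genotype difference had opposite signs in osteoclasts and macrophages for Pdgfb, Pdgfc, Hgf (as a bound), Met (by its brighter probe alone) and Igf1. Pdgfa was lower with LysM-St18flox in both cell types. The share of all genes with opposite signs was not counted, so whether such a change of sign is unusual is not known. The genotype differences in the 2 cell types can also be read as a difference in the osteoclast response. For Met the response was larger in LysM-St18flox than in wild-type cells by 2.53 ± 0.29 on the log2 scale, the 22nd highest of the 13671 genes that all arrays measured, and for Pdgfc it was lower by that amount (-2.53 ± 0.31), the 17th lowest. Over all genes 7.9% were at least 2-fold apart in this way. The other values were 1.09 for Pdgfb, 0.93 for Pdgfa and -0.88 for Igf1, each with a scanner error of 0.29. For each of these 5 genes the response kept its direction in both genotypes and was larger in LysM-St18flox cells, in which responses of 2-fold were also more common over all genes (23.2% against 13%). The dimmer Met probe gave 0.14 in place of 2.53. The difference between genotypes of the response has no replicate check and was not tested.

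**Figure D4:**
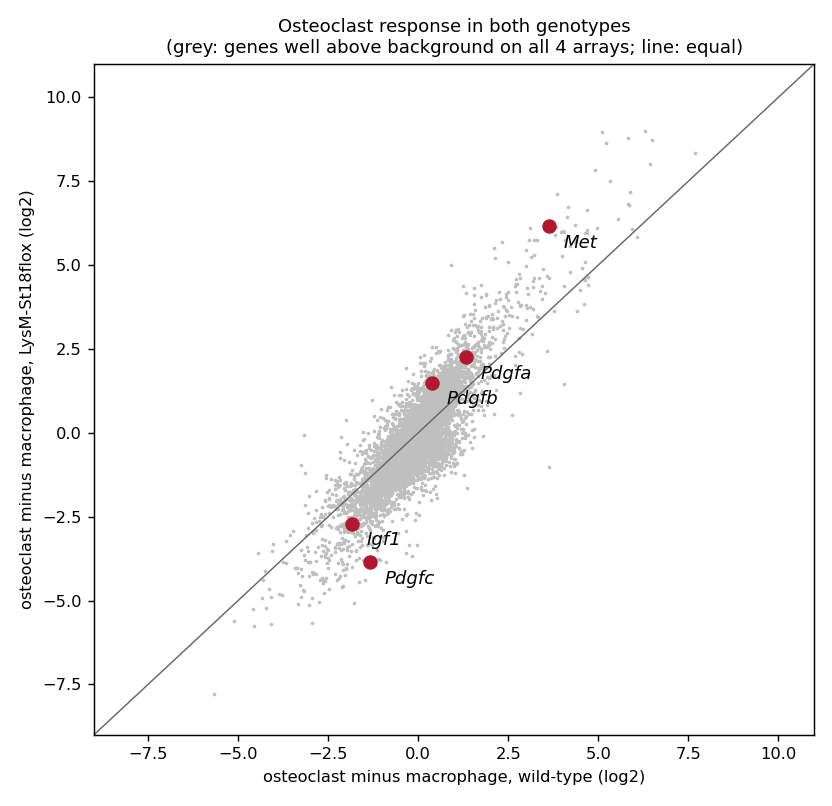
Osteoclast minus macrophage difference in LysM-St18flox cells (y axis, log2) against that in wild-type cells (x axis, log2), for genes measured on each of the 4 arrays (grey) and 5 growth factor genes (red); the line marks equal responses. Met, Pdgfa and Pdgfb lie above the line and Pdgfc and Igf1 below it, each further from 0 in LysM-St18flox cells.

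The genes with profiles most like those of Met, Pdgfc and Igf1 were sought among 13670 genes by the root mean square distance of log2 levels over the 4 arrays, each profile centred on its own mean. Nearest to Met were Cyb561 (0.20), Slc6a4 (0.21), which encodes the serotonin transporter, and Fam102a (0.21). Cyb561 had 3.18 in LysM-St18flox osteoclasts, 2.26 in wild-type osteoclasts, and then -2.58 in LysM-St18flox macrophages and -1.04 in wild-type macrophages. Nearest to Pdgfc were Trf (0.15), which encodes transferrin, Gab1 (0.19), which encodes a docking protein of MET and other receptor tyrosine kinases, and Armc2 (0.19). Gab1 was higher in LysM-St18flox macrophages than in wild-type ones (1.70) and lower in osteoclasts (-3.36 in LysM-St18flox cells, -1.27 in the wild type). Nearest to Igf1 were Sash1 (0.06), Plcd1 (0.07) and Rsph9 (0.08). Distances over 4 arrays describe likeness of level only.

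Beyond the 10 genes, 65 related genes were listed (ligands, receptors, processing enzymes, binding proteins and adaptors), of which 41 were measured on 1 array or more and 18 were at least 2-fold apart in at least 1 comparison. The share of all genes that were so in any comparison was not counted, so whether 18 is many is not known. Of 16 such 2-fold values with a second probe, 4 were not 2-fold the same way by it (in Hpn, Nrg1 and St14). Between osteoclasts 3 of 41 measured were higher in LysM-St18flox cells and 0 lower by the brightest probe of each gene, where 7.75% of all genes were 2-fold apart. Igfbp2 is counted among the 41 but has no value there. Dimmer probes of Plau (-1.61), Spint1 (-1.20) and St14 (-1.02) were past 2-fold lower between osteoclasts, and that of Plau gave -1.38 between macrophages. Between macrophages 3 of 37 were higher and 3 lower by the brightest probe, where 6.28% of all genes were 2-fold apart. Between cell types 9 of 41 were higher and 7 lower in LysM-St18flox osteoclasts, and 6 of 38 were higher and 5 lower in wild-type osteoclasts, where 23.2% and 13% of all genes were 2-fold apart. The median differences of these genes lay between -0.08 and 0.09 in the 4 comparisons. Among feedback genes of receptor tyrosine kinases, Spry1, which encodes an inhibitor of Ras and ERK signalling, was higher in osteoclasts by 5.74 in LysM-St18flox cells and 4.06 in the wild type, and higher in LysM-St18flox osteoclasts than in wild-type ones (1.77). Dusp6, which encodes a phosphatase of ERK, was lower in osteoclasts (-1.52 in LysM-St18flox cells, -2.24 in the wild type). Dusp4, another ERK phosphatase, and Lrig1, a negative regulator of EGFR and MET, were lower in LysM-St18flox macrophages than in wild-type ones (-1.31 and -1.05), and Dusp4 was higher in LysM-St18flox osteoclasts than in macrophages of that genotype (1.46).

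**Figure D5:**
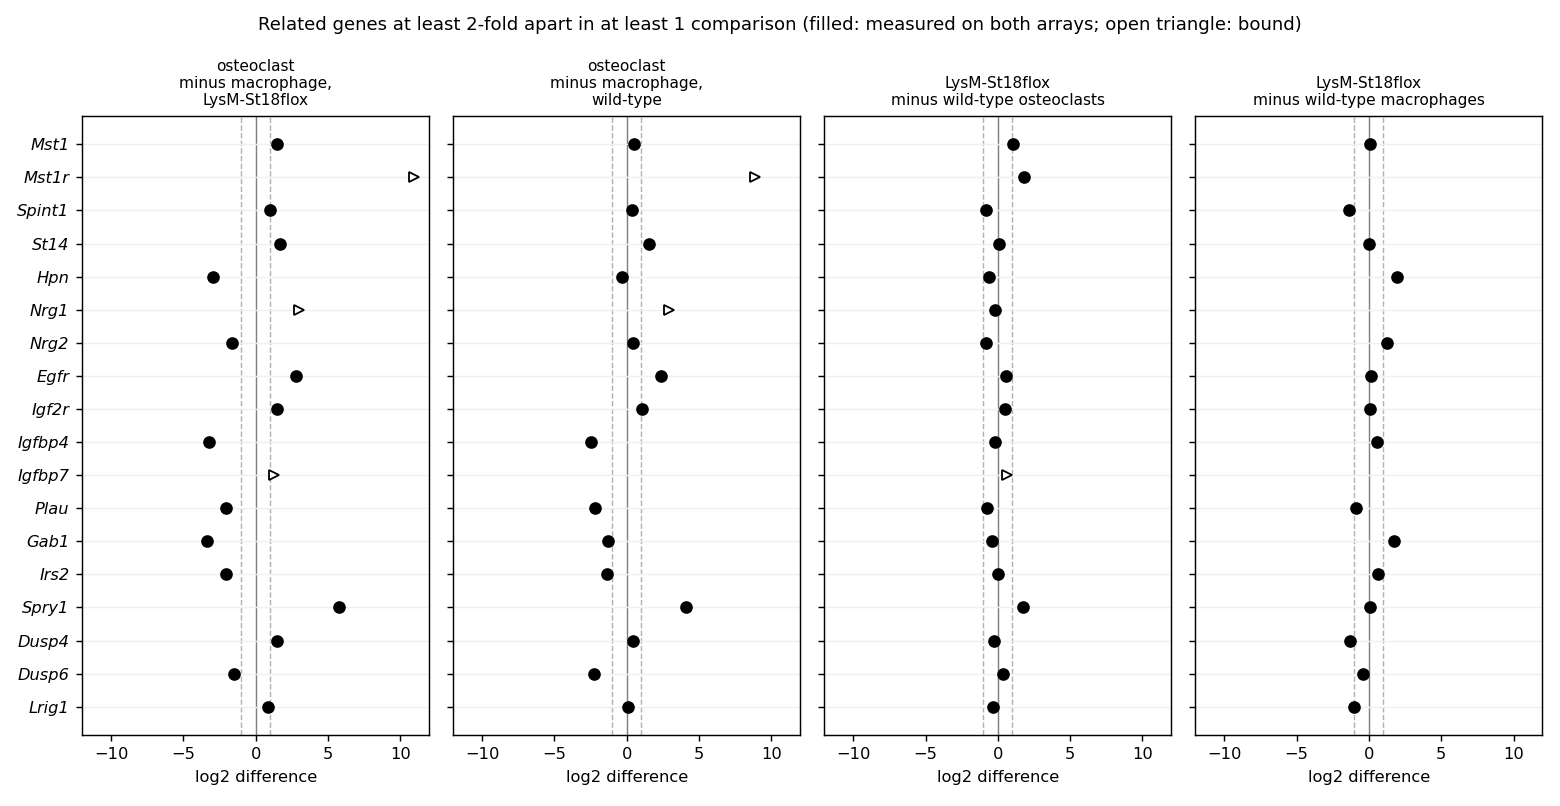
Log2 difference (x axis) of the 18 related genes at least 2-fold apart in at least 1 comparison (y axis) in the 4 comparisons (panels); filled circles are measured on both arrays, open triangles are bounds, and dashed lines mark 2-fold. Mst1r and Spry1 reach furthest to the right between cell types, with a bound of 10.97 and a value of 5.74 in LysM-St18flox cells.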

How the data were processed

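Total RNA, 100 ng per sample, was labelled with Cy3, per the labels' protocols, and spots were quantified in Agilent Feature Extraction (version 11.0.1.1), a tool named in the submitters' processing notes. Per the file headers, the deposited scanner files give for each spot a processed intensity, already background-corrected within the array and not scaled between arrays, its error, median intensities of spot and local background, and several flags, deposited as 0 or 1, that mark spots as saturated, uneven or well above background. The authors' deposited table of log2 values holds 30909 probes and 5 of the 10 genes. How it was normalized is not stated in the labels; its sorted columns differ by at most 0.000652, each has a median of 9.39, and each correlates with its array at 0.9998 or more. It holds levels, and no column was left unmapped.

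Samples were grouped by cell type and genotype in the labels, with 1 array a group. Between 80 and 126 spots an array that the software called uneven or outlying were dropped, log2 signals were averaged over the spots of a probe, and the 75th percentile of the array was subtracted. Probes were named through RefSeq accessions and a table of assembly GRCm38.p6, used for names alone since the file headers name another build; 32994 of 56605 probes matched. For each gene the probe of highest mean signal was used, taken as well above background if a share of 0.5 of its spots was. The 4 comparisons and the difference between genotypes of the osteoclast response were computed, with no test. Alternatives were normexp (limma 3.58.1, offset 50), scaling to the array median, quantile normalization, the authors' values, no filter, a filter on both arrays, the median over probes, the dimmer probe, and 1.5-fold. Normexp was run on median in place of mean spot signals, a choice made after seeing the data. The calculations were tested on simulated data.

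The genes and lists were chosen with earlier results of these data known. Named are all 10 genes, related genes at least 2-fold apart in 1 comparison or partners of the 10, and the 3 nearest profiles of the 3 genes with the widest range among those measured on all arrays. Probes with 10 spots had an SD between spots of 0.0309 to 0.0422 (log2, median), which gives a calculated SD of 0.0451 to 0.0557 for a difference between arrays. Single arrays limit the precision of every value, and no spread between cultures is known.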

Additional observations from a re-analysis of the deposited data

Results flagged for a closer look

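For the genes named here the genotype difference (LysM-St18flox minus wild type) had opposite signs in osteoclasts and macrophages. With 1 array a group the difference between the cell types was not tested, and the share of all genes with opposite signs was not counted. For Met it was 0.79 in osteoclasts and -1.73 in macrophages, 2.53 apart on the log2 scale, by the brighter probe; by the dimmer probe it was 0.26 and 0.12, which are of 1 sign. For Pdgfc it was -0.73 in osteoclasts and 1.80 in macrophages, a difference of -2.53. For Hgf it was a bound of -1.69 in osteoclasts and 0.74 in macrophages, a difference of -2.42 that is itself a bound; its dimmer probe gave no value in osteoclasts. For Pdgfb it was 0.46 in osteoclasts and -0.63 in macrophages, a difference of 1.09. For Igf1 it was -0.57 in osteoclasts and 0.31 in macrophages, a difference of -0.88.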

How the results depend on the processing

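With the main setting included, 258 values were computed for 32 differences of the growth factor genes. Of these, 1 reversed: Met between LysM-St18flox and wild-type macrophages, which was 0.12 with the dimmer probe in place of -1.73. The 1.5-fold setting, 1 of 9 others, changes only the counts of genes. For a gene with 1 probe that all arrays measured, the filters and the median over probes cannot change a value. Of 20 values past 2-fold, 19 kept their sign in every setting that gave one and 17 stayed past 2-fold. The other 3 were Met between macrophages, the Met response difference and the Pdgfb response difference (0.98 to 1.33). The 20 include the bounds of Hbegf between cell types and of Hgf between osteoclasts and between LysM-St18flox cell types. The sign of a bound could change only in the setting with no filter, so the kept sign of these bounds is no check of them. The number of genes 2-fold apart between macrophages was 5 at 1.5-fold in place of 3. Between osteoclasts it was 4 at 1.5-fold, 1 with both arrays required to be well above background (Hgf has only a bound) and 0 with the authors' values, which lack Hbegf and Hgf, in place of 2. Scaling to the array median shifted the median of all genes by 0.25 between osteoclasts and 0.17 between LysM-St18flox cell types; Met then reached 1.04 between osteoclasts. It changed the number of all genes higher and lower to 996 and 316 between osteoclasts, in place of 556 and 576, and to 2204 and 1522 between LysM-St18flox cell types, in place of 1702 and 1905. For the osteoclast response difference it gave 807 and 366, in place of 438 and 642, and normexp 373 and 329. Quantile normalization gave 644 and 394 between osteoclasts, normexp 318 and 219, and the authors' values 432 and 263. The number of all genes 2-fold apart was 557 between macrophages with normexp and 2094 with no filter, in place of 952. Between osteoclasts it was 537 and 2330, and 695 with the authors' values, in place of 1132; the response difference had 702 and 3345 in place of 1080. With no filter it was 2985 in place of 1918 between wild-type cell types. No paired analysis was possible because each group has 1 array. Signals near background limit Hgf and Hbegf, and Pdgfrb, Tgfa and Areg have no measured level.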
